A study of Mus musculus with 7 samples.

Results

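The genes described here are 8 genes of fatty acid use, *Pparg*, *Cd36*, *Fabp4*, *Fabp5*, *Dgat1*, *Cpt1a*, *Acadl* and *Scd2*, in type 2 innate lymphoid cells (ILC2s) of the mouse heart. They were listed by name, and each matched exactly 1 of the 55335 gene identifiers of the table. All 8 passed the filter on low counts that left 17015 genes for testing. ILC2s, lymphocytes without antigen receptors, had been sorted by flow cytometry as CD45+, Lineage-, ST2+ cells. The naive group held 3 libraries of ILC2s from naive hearts. The allograft group held 4 libraries of ILC2s from Balb/C hearts harvested 7 days after transplantation into C57BL/6 (B6) recipients, a model in which the graft is acutely rejected. Each library pooled cells of 4 to 7 hearts, no genotype was given, and neither the strain of the naive hearts nor the age or sex of any animal was stated in the labels. The stated purpose was to compare the transcripts of graft-infiltrating with those of naive ILC2s, measured from full-length amplified cDNA. No transgene, Cre driver or drug was named for either group. In a graft, host and donor cells can both carry ST2, and the labels did not tell them apart. The replicates are such pools, so each p-value below refers to the spread between pools.

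Fatty acids enter cells with the help of the scavenger receptor CD36 and travel in the cytosol bound to fatty acid binding proteins such as FABP4 and FABP5. They are then stored as triglyceride in lipid droplets, a step that the acyltransferase DGAT1 completes, or are passed into mitochondria by the carnitine shuttle, whose entry enzyme is CPT1A, and shortened by beta-oxidation. The nuclear receptor PPARG binds fatty acids and switches on many genes of uptake and storage. ILC2s of airway and adipose tissue are known to express *Pparg* and to take up fatty acids from their surroundings.

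The libraries held 43591167 to 53044907 counts in the naive group and 29107326 to 44023726 in the allograft group. Naive replicate 2 stood apart. Mitochondrial transcripts made up 26.5% of its counts, against 2.04% to 3.11% in the other 6 libraries. The 12 ILC2 markers, among them *Il1rl1* (the ST2 gene, used for the sort), *Gata3* and *Rora*, summed to 199 CPM (counts scaled to the library total) in this library, with 11 of 12 detected. Their sum was 6312 CPM in naive replicate 1, 8293 CPM in naive replicate 3 and 7074 to 7666 CPM in the allografts, and all 12 were detected in both of these naive libraries. Kidney tubule markers summed to 10790 CPM in naive replicate 2 and to 70.8 to 288 CPM in the other 6 libraries. Each test of the 8 genes is therefore also given without naive replicate 2.

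Markers of other cells were counted in the same way, because *Cd36* and *Fabp4* are also transcribed in endothelial cells, macrophages and adipocytes. The 12 endothelial markers summed to 756 CPM in naive replicate 2, to 39.0 and 8.26 CPM in naive replicates 1 and 3, and to 38.1 to 52.5 CPM in the allografts. *Tie1*, *Tek*, *Esam*, *Flt1* and *Gpihbp1* had 0 counts in both naive replicates 1 and 3. The 8 adipocyte markers never summed to more than 0.500 CPM, and *Adipoq*, *Plin4*, *Retn*, *Cfd* and *Adrb3* had 0 counts in every allograft. The 10 cardiomyocyte markers summed to at most 9.22 CPM. For the 10 macrophage and monocyte markers the sums were 2.49, 318 and 476 CPM in the naive libraries (replicates 1 to 3) and 173 to 267 CPM in the allografts, mostly through *Lyz2* (432 CPM in naive replicate 3). Dendritic cell markers summed to 12.7 to 31.8 CPM in naive and 82.6 to 109 CPM in allograft libraries, T cell markers to 17.04 to 238 and 274 to 336 CPM, B cell markers to 0 to 117 and 90.9 to 149 CPM, and eosinophil markers to 0 to 26.8 and 27.2 to 58.6 CPM. Sums of mast cell and basophil markers were 414, 15.2 and 303 CPM in the naive libraries (replicates 1 to 3) and 194 to 232 CPM in the allografts. Erythroid markers summed to 776 to 3004 CPM in naive and 468 to 598 CPM in allograft libraries, fibroblast markers to 0.0566 to 141 and 15.1 to 71.5 CPM, and lung epithelial markers to 6.43 to 718 and 275 to 718 CPM. The part of these cells in the values of the 8 genes was not tested, and in pooled cells fewer cells of a type and less RNA per cell cannot be told apart.

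**Figure D1:**
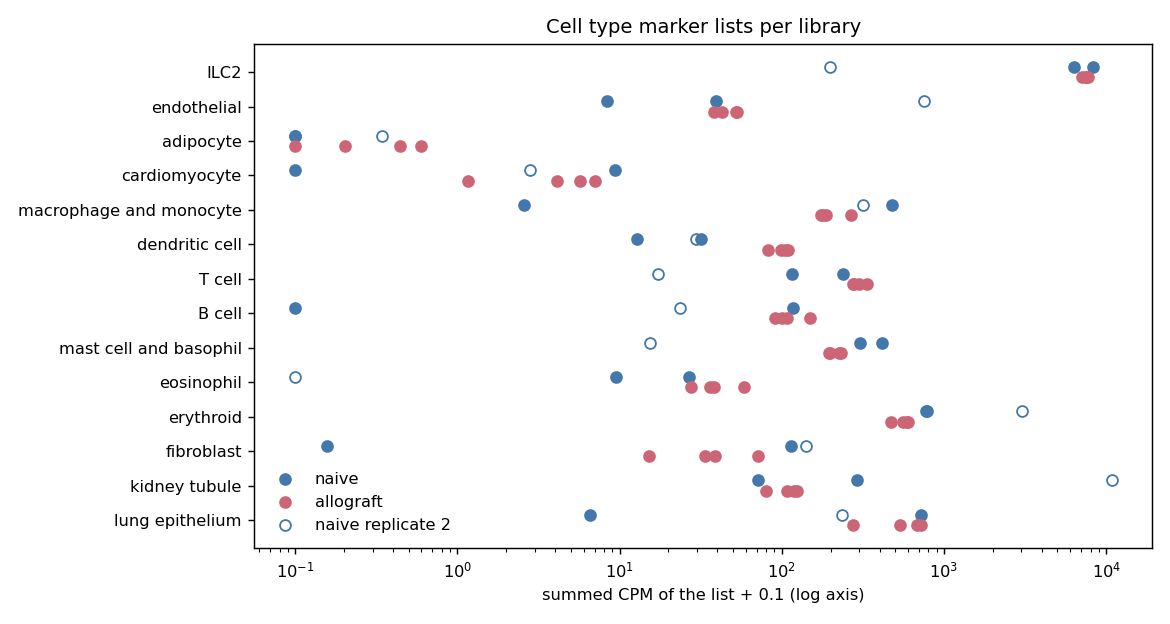
Summed CPM of each marker list plus 0.1 (log axis) in the 3 naive libraries (blue, naive replicate 2 open) and the 4 allograft libraries (red). Naive replicate 2 lies far below the others for ILC2 markers (199 CPM) and far above them for kidney tubule (10790 CPM) and endothelial markers (756 CPM).

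In the comparison of allograft with naive ILC2s, *Fabp4* and *Cpt1a* were lower in every allograft library than in every naive library, and *Fabp5* was higher in every allograft library. The other 5 genes overlapped between the groups. None of the 8 genes passed the test, edgeR's quasi-likelihood test over all genes with a Benjamini-Hochberg adjusted p under 0.05, by which 0.0353% of all genes were called (6 of 17015). At an unadjusted p under 0.05, 2 of the 8 were lower, *Fabp4* and *Cpt1a*, where 3.86% of all tested genes were lower, and 0 were higher, where 6.41% were. Leaving out naive replicate 2, 0 of the 8 passed the adjusted threshold (3.1% of all genes did). The same pair had an unadjusted p under 0.05 as lower (4.67% of all genes), and 0 had one as higher (15.6%). These shares over all genes include genes with at most 3 counts in both naive replicates 1 and 3, which could only be higher. Each of the 8 had more. Over all genes with more than 3 counts in either of these libraries, 0.523% passed the adjusted threshold. At an unadjusted p under 0.05, 5.72% of those were lower and 4.66% higher. The count among the 8 genes moved more with another naive library left out. Without naive replicate 1, 3 of the 8 had an unadjusted p under 0.05 as lower, *Cd36* in addition (7.11% of all genes), and 2 as higher, *Pparg* and *Fabp5* (10.5%). Without naive replicate 3, 2 had one as lower (7.36%) and 1 as higher, *Dgat1* (9.32%). With DESeq2, which called 4.36% of the genes with a count, *Fabp4* and *Cpt1a* passed and the other 6 did not. The same held with DESeq2 without naive replicate 2, a fit added after seeing the data, which called 12.3% of the genes with a count. Genes with 0 counts in both remaining naive libraries, which could only be higher, are part of that share. Complete separation of the groups was seen downward in 2 of the 8 genes against 2.15% of all genes, and upward in 1 of the 8 against 12.5%. Without naive replicate 2 these shares were 7.15% downward and 21% upward over all genes, and *Fabp4*, *Cpt1a* and *Fabp5* still separated. That upward share also includes genes with at most 3 counts in both remaining naive libraries.

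**Figure D2:**
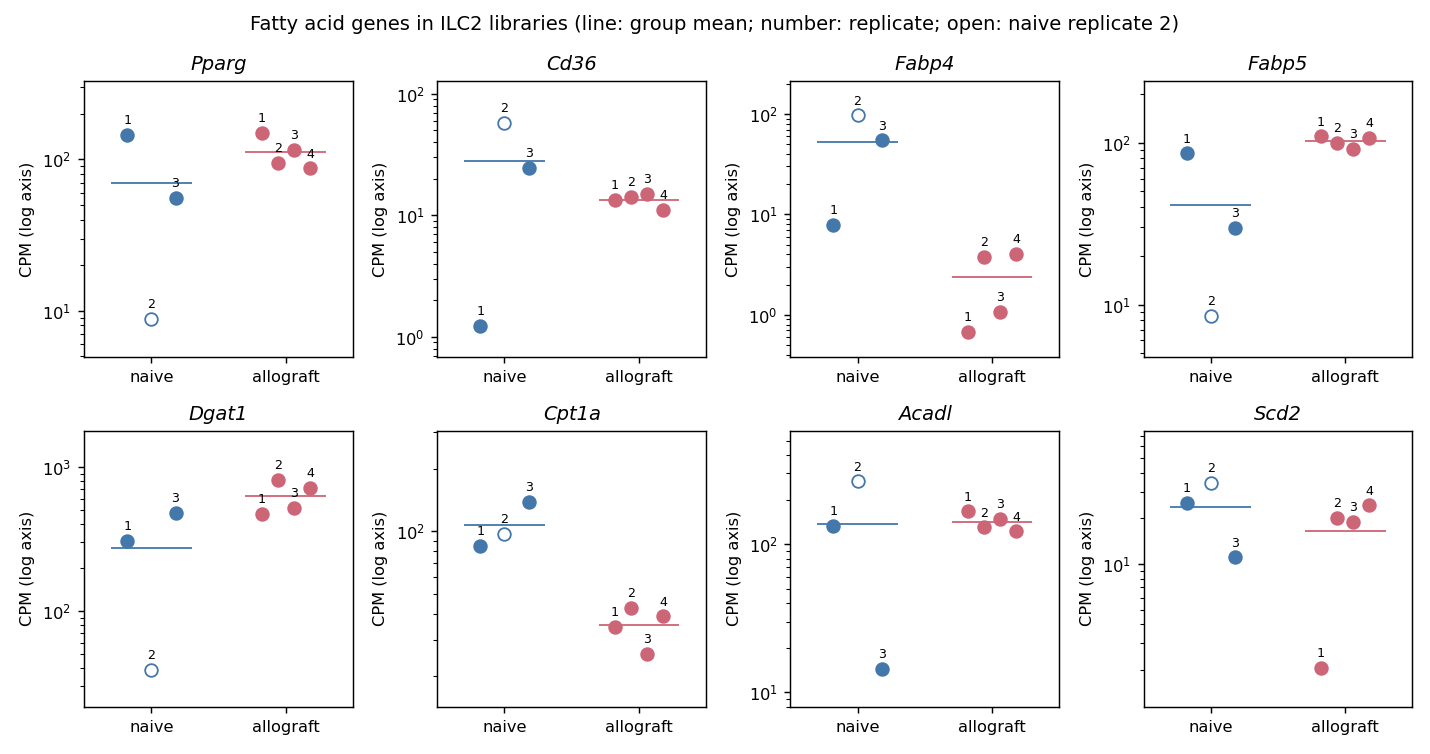
CPM (log axis, scaled per panel) of the 8 genes in each of the 3 naive and 4 allograft libraries, numbered by replicate, with the group mean as a line and naive replicate 2 as an open circle. *Cpt1a* and *Fabp4* lie lower in all 4 allografts than in all 3 naive libraries, while the naive libraries of *Pparg*, *Cd36*, *Dgat1* and *Acadl* spread over more than the range of the allografts.

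**Figure D3:**
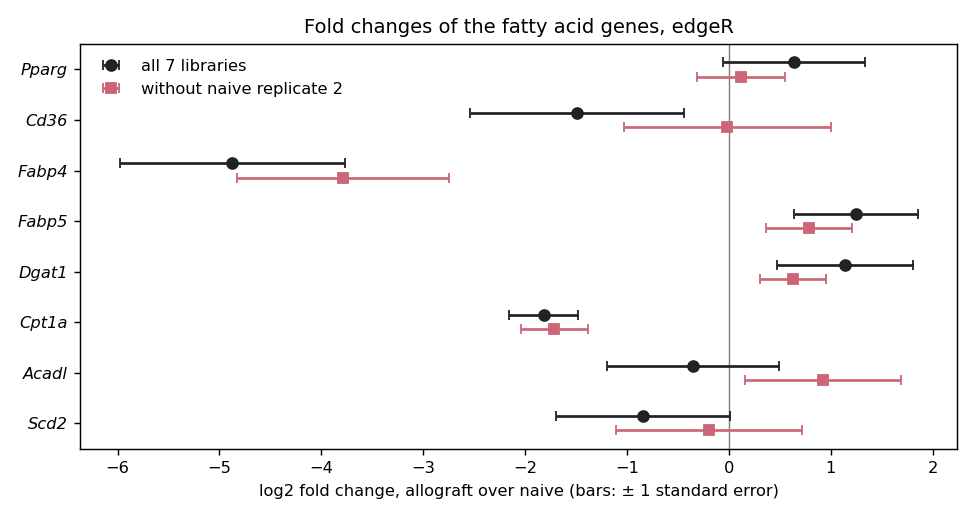
Log2 fold change of the 8 genes, allograft over naive, from edgeR over all 7 libraries (black) and without naive replicate 2 (red), with bars of 1 standard error. *Cpt1a* moves least when that library is left out (from -1.82 to -1.71), and *Acadl* changes sign (from -0.35 to 0.92).

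*Pparg* (ENSMUSG00000000440; GRCm38 chromosome 6, 115360951 to 115490399, plus strand) stood at 145, 8.88 and 55.6 CPM in the naive libraries (replicates 1 to 3) and at 150, 94.3, 115 and 87.2 CPM in the allografts (replicates 1 to 4). Naive replicate 1 lay inside the range of the allografts, and the other naive libraries lay below it. The log2 fold change was 0.64 (SE 0.70, edgeR adjusted p = 0.851), and 0.12 (SE 0.43, adjusted p = 0.924) without naive replicate 2. Leaving out naive replicate 1 instead gave 1.65 (adjusted p = 0.272). In naive replicate 2 the low *Pparg* level went with a low level of *Gata3*, a transcription factor that defines ILC2s, at 34.8 CPM against 654 and 970 CPM in the other naive libraries. Per *Gata3* count, a ratio chosen after the values were seen, *Pparg* stood at 22.2%, 25.5% and 5.73% in naive replicates 1 to 3 and at 9.95% to 19.8% in the allografts, so that naive replicate 3 was then the lowest library. An antisense gene inside *Pparg*, *Gm44079*, had 0 to 24 counts, and whether the counting used strand was not stated.

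*Cd36* (ENSMUSG00000002944; chromosome 5, 17781690 to 17888801, minus strand), the membrane receptor for fatty acids and oxidized lipoprotein, stood at 1.23, 58.0 and 24.6 CPM in the naive libraries (replicates 1 to 3). It had 13.4, 14.2, 15.1 and 11.1 CPM in allograft replicates 1 to 4. The highest naive library exceeded the lowest 47.3 times, the widest naive range among the 8 genes, whereas the allografts differed 1.36 times at most. The naive libraries thus lay on both sides of a narrow allograft range. In the fit the log2 fold change was -1.49 (SE 1.05, edgeR adjusted p = 0.736), and -0.02 (SE 1.02, adjusted p = 0.996) without naive replicate 2. Naive replicates 2 and 3 had the most *Cd36*. The endothelial marker sum was highest in naive replicate 2. The macrophage and monocyte marker sum was highest in naive replicate 3, where *Lyz2* alone gave 432 of 476 CPM. Only 4 of these 10 markers were detected there, against 8 in naive replicate 2. Naive replicate 1, with the least *Cd36*, had 39.0 CPM of endothelial and 2.49 CPM of macrophage and monocyte markers, and the part of these markers in the result was not tested.

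*Fabp4* (ENSMUSG00000062515; chromosome 3, 10204088 to 10208576, minus strand), the fatty acid carrier of adipocytes, macrophages and capillary endothelium, stood at 7.80, 96.7 and 54.5 CPM in the naive libraries (replicates 1 to 3). It had 0.681, 3.76, 1.08 and 4.02 CPM in allograft replicates 1 to 4, which rest on 30 to 122 counts. All 4 allografts lay below all 3 naive libraries, and the lowest naive library was 1.94 times the highest allograft. The naive mean was 53.0 ± 44.4 CPM (SD, n = 3) and the allograft mean 2.39 ± 1.75 CPM (SD, n = 4), a 22.2-fold difference of means, or 13.1-fold without naive replicate 2. The log2 fold change was -4.87 (SE 1.10, edgeR adjusted p = 0.151) and -3.78 (SE 1.04, adjusted p = 0.113) without naive replicate 2. DESeq2 gave -5.19 with an adjusted p of 2.3e-04, and -3.92 with an adjusted p of 0.00456 without naive replicate 2. The adjusted p of the 13 alternatives spanned the range 2.3e-04 to 1. *Fabp4* had the largest fitted fold of the 8 genes, and both groups varied widely for it. Per *Gata3* count *Fabp4* stood at 1.19%, 277% and 5.62% in naive replicates 1 to 3 and at 0.0902% to 0.490% in the allografts. Naive replicate 2, with the most *Fabp4*, had 756 CPM of endothelial markers, with 12 of 12 detected, and 318 CPM of macrophage and monocyte markers. Naive replicate 1 had 39.0 and 2.49 CPM of these 2 lists. Naive replicate 3 had 54.5 CPM of *Fabp4*, with 2 of 12 endothelial markers detected and 0 counts of adipocyte markers. Its macrophage and monocyte markers summed to 476 CPM, of which *Lyz2* gave 432 CPM, and 4 of the 10 were detected. In the allografts, with little *Fabp4*, the same list summed to 173 to 267 CPM. The part of these markers in the *Fabp4* values was not tested.

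*Fabp5* (ENSMUSG00000027533; chromosome 3, 10012548 to 10016607, plus strand), the epidermal type fatty acid carrier that is also found in many immune cells, stood at 85.8, 8.51 and 29.6 CPM in the naive libraries (replicates 1 to 3). The allograft replicates 1 to 4 had 109, 99.7, 91.3 and 106 CPM, a narrow range above every naive library. The lowest allograft and the highest naive library nevertheless lay close together. edgeR estimated a log2 fold change of 1.25 (SE 0.60, edgeR adjusted p = 0.569), and 0.78 (SE 0.43, adjusted p = 0.336) without naive replicate 2. Without naive replicate 1 it was 2.23 (SE 0.46, adjusted p = 0.0943). Per *Gata3* count the groups overlapped, at 13.1%, 24.4% and 3.05% in naive replicates 1 to 3 and 12.2% to 14.5% in the allografts. Reads of *Fabp5* can be shared with like sequences such as *Fabp5l2*, which had 0 to 67 counts. In CPM *Fabp4* was lower and *Fabp5* higher in all allografts, but 12.5% of all tested genes separated upward as *Fabp5* did (21% without naive replicate 2). The 21% includes genes with at most 3 counts in both naive replicates 1 and 3, which could only be higher. *Fabp5* had 4551 and 1289 counts there. Of the 2 carriers *Fabp5* was far more abundant in the allografts: 24.7 ± 1.85 against 0.455 ± 0.337 FPKM (fragments scaled to gene length and library size; SD, n = 4 each). In naive libraries *Fabp5* was above *Fabp4* in FPKM in replicate 1 (21.1 against 1.51) and below it in replicates 2 (2.18 against 19.8) and 3 (7.33 against 10.7).

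*Dgat1* (ENSMUSG00000022555; chromosome 15, 76502015 to 76511953, minus strand), which makes triglyceride for lipid droplets, stood at 306, 38.8 and 479 CPM in the naive libraries (replicates 1 to 3) and at 473, 810, 521 and 718 CPM in the allografts (replicates 1 to 4). Naive replicate 3 reached into the allograft range by a small margin, and naive replicate 2 was far lower than all others. This gave a log2 fold change of 1.13 (SE 0.67, edgeR adjusted p = 0.674), and 0.63 (SE 0.32, adjusted p = 0.329) without naive replicate 2. Without naive replicate 3 it was 1.81 (SE 0.71, adjusted p = 0.288). Per *Gata3* count *Dgat1* stood at 46.7%, 111% and 49.3% in naive replicates 1 to 3 and at 62.6% to 105% in the allografts. Allografts then lay above naive replicates 1 and 3 and below naive replicate 2.

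*Cpt1a* (ENSMUSG00000024900; chromosome 19, 3322334 to 3385733, plus strand), the gate of long-chain fatty acids into mitochondria, stood at 84.5, 97.3 and 139 CPM in the naive libraries (replicates 1 to 3) and at 34.5, 42.5, 25.6 and 38.8 CPM in the allografts (replicates 1 to 4). All 4 allografts lay below all 3 naive libraries, and the lowest naive library was 1.99 times the highest allograft. The means were 107 ± 28.3 CPM (SD, n = 3) and 35.4 ± 7.30 CPM (SD, n = 4), a 3.02-fold difference, or 3.16-fold without naive replicate 2. The log2 fold change was -1.82 (SE 0.34, edgeR adjusted p = 0.144, unadjusted p = 8.1e-04), and -1.71 (SE 0.33, adjusted p = 0.0502) without naive replicate 2. DESeq2 gave -2.05 with an adjusted p of 3.8e-05, and -1.82 with an adjusted p of 5.0e-04 without naive replicate 2. The adjusted p of the 13 alternatives spanned the range 3.8e-05 to 1. Among the 8 genes *Cpt1a* had the smallest spread over the naive libraries, with an SD of log2 CPM of 0.37 against a median of 1.63 over all tested genes. The highest naive library, replicate 3, exceeded the lowest, replicate 1, by a factor of 1.64, with the kidney tubule-rich replicate 2 between them. Per *Gata3* count *Cpt1a* stood at 12.9% and 14.3% in naive replicates 1 and 3, at 279% in naive replicate 2, and at 3.62% to 5.54% in the allografts.

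*Acadl* (ENSMUSG00000026003; chromosome 1, 66830839 to 66863277, minus strand), which encodes the long-chain acyl-CoA dehydrogenase of mitochondrial beta-oxidation, stood at 133, 265 and 14.4 CPM in the naive libraries (replicates 1 to 3). The allograft replicates 1 to 4 had 166, 130, 149 and 122 CPM. Naive replicate 1 lay among the allografts, replicate 2 above them and replicate 3 far below them. Over all 7 libraries the log2 fold change was -0.35 (SE 0.85, edgeR adjusted p = 0.950), and its sign turned without naive replicate 2, at 0.92 (SE 0.77, adjusted p = 0.561). A pseudogene inside *Acadl* on the same strand, *Gm15793*, had 25 to 228 counts.

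The low *Acadl* level of naive replicate 3 was shared by other enzymes of the same chain, a count made after the values were seen. Of the 15 genes listed for mitochondrial beta-oxidation, *Acadl* included, 12 (80.0%) were lowest of all 7 libraries in naive replicate 3, against 24.2% of all tested genes. Likewise 12 of the 15 (80.0%) were highest in naive replicate 2, against 19.7% of all tested genes, and 10 of the 15 (66.7%) showed both, against 6.34%. *Acadl*, which prompted the count, is itself among the genes of each of these counts. *Acaa2*, the thiolase of the last step, had 3.97 CPM in naive replicate 3, against 122 and 257 CPM in naive replicates 1 and 2 and 69.5 to 96.5 CPM in the allografts. *Etfa*, which passes electrons from the acyl-CoA dehydrogenases to the respiratory chain, had 18.1 CPM there, against 307 and 578 CPM in the other naive libraries and 122 to 176 CPM in the allografts. *Cpt2*, the second enzyme of the carnitine shuttle, had 0 counts in naive replicate 3, which allows up to 0.0688 CPM, against 28.2 and 42.7 CPM in naive replicates 1 and 2 and 2.32 to 9.32 CPM in the allografts. *Cpt1a* itself was highest of all 7 libraries in naive replicate 3. The part of the other cells in naive replicate 2, and of any difference between pools, in these levels was not tested.

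**Figure D4:**
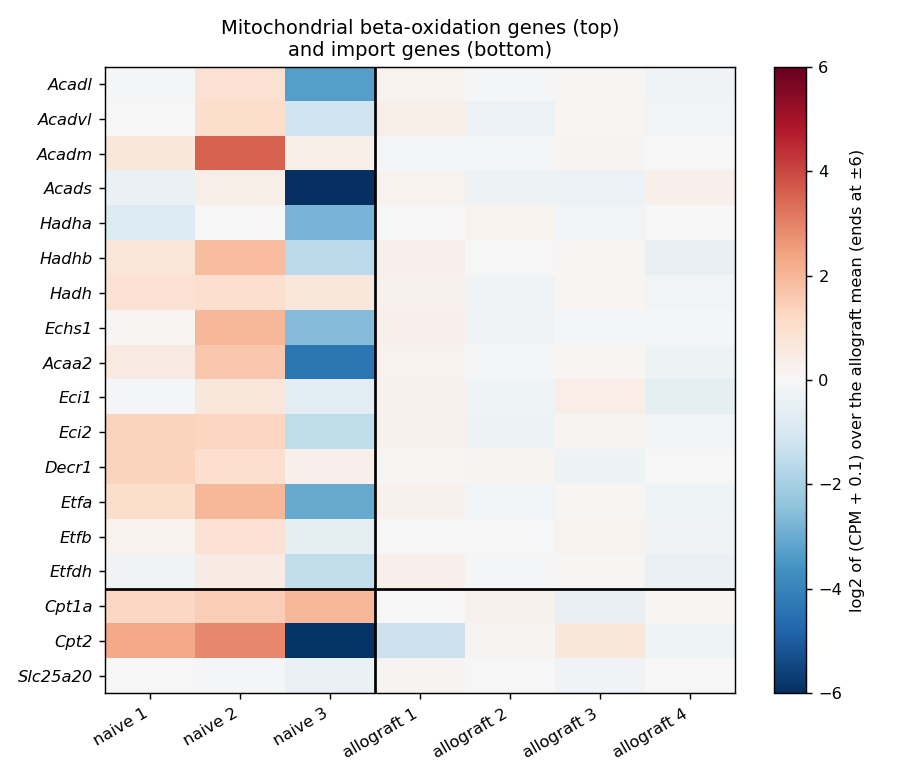
Each cell gives log2 of CPM plus 0.1 over the mean of the 4 allografts, for 15 genes of mitochondrial beta-oxidation (above the line) and 3 genes of mitochondrial import (below it) in the 7 libraries. Naive replicate 3 is lowest for 12 of the 15 genes and naive replicate 2 highest for 12, while *Cpt1a* is above the allografts in all 3 naive libraries.

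*Scd2* (ENSMUSG00000025203; chromosome 19, 44293674 to 44306864, plus strand), a desaturase that makes monounsaturated fatty acids, stood at 25.3, 34.5 and 11.1 CPM in the naive libraries (replicates 1 to 3) and at 2.04, 20.2, 19.0 and 24.4 CPM in the allografts (replicates 1 to 4). Allograft replicate 1, with 90 counts, lay below all other libraries, and the other 3 allografts lay within the naive range. The log2 fold change was -0.85 (SE 0.85, edgeR adjusted p = 0.834). It was -0.51 (SE 0.66, adjusted p = 0.9998) without allograft replicate 1 and -0.19 (SE 0.91, adjusted p = 0.944) without naive replicate 2. *Scd2* is similar in sequence to its neighbours *Scd1*, *Scd3* and *Scd4*, so that reads may be split between them. *Scd1* had 0 counts in naive replicates 1 and 3, 280 counts in naive replicate 2 and 186 to 527 counts in the allografts. *Scd3* had 0 counts in every library, and *Scd4* had 0 to 114.

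Within groups, the spread of these genes differed in the same way as that of the whole table. The SD of log2 CPM had a median over the 8 genes of 1.92 among the naive and 0.33 among the allograft libraries, against 1.63 and 0.44 over all tested genes. *Scd2* (1.68) and *Fabp4* (1.26) were the genes that varied most among the allografts, and *Fabp5* varied least (0.12).

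On the scale that allows genes to be compared, FPKM, the order in the allografts was *Dgat1* (179 ± 45.7, SD, n = 4), *Acadl* (61.3 ± 8.47), *Pparg* (32.7 ± 8.09), *Fabp5* (24.7 ± 1.85), *Cpt1a* (4.001 ± 0.824), *Cd36* (3.24 ± 0.419), *Scd2* (2.60 ± 1.56) and *Fabp4* (0.455 ± 0.337). The ranges over the 4 allografts overlapped between *Pparg* and *Fabp5*, and between each neighbouring pair from *Cpt1a* down to *Fabp4*. They did not overlap between *Dgat1* and *Acadl*, between *Acadl* and *Pparg*, or between *Fabp5* and *Cpt1a*. The mean level of *Dgat1* in the allografts exceeded that of 97.9% of the tested genes, and that of *Fabp4* exceeded that of 19.0%. In the naive libraries the mean order began in the same way, with *Dgat1* (79.5 ± 64.04, SD, n = 3), *Acadl* (62.02 ± 57.7) and *Pparg* (20.8 ± 20.5). *Cpt1a* (12.5 ± 3.26), *Fabp4* (10.7 ± 9.13) and *Fabp5* (10.2 ± 9.76) came next, ahead of *Cd36* (7.07 ± 7.32) and *Scd2* (3.87 ± 2.01). The naive ranges of all neighbours in this order overlapped. The naive means include replicate 2, which had 19.8 FPKM of *Fabp4* and 2.18 FPKM of *Fabp5*. Naive replicates 1 and 3 had 1.51 and 10.7 FPKM of *Fabp4*, against 21.1 and 7.33 FPKM of *Fabp5*.

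RefSeq (GRCm38.p6) gave the promoter of 4 of the 8 genes, *Acadl*, *Cd36*, *Cpt1a* and *Pparg*, the last with 3 start sites. The 250 bases before the start are shown for the entry enzyme of mitochondrial oxidation, which was lower in all allografts, for the dehydrogenase of the chain and for the receptor at the membrane, which overlapped between the groups. Capitals mark a GC box (GGGCGG on either strand) or a CCAAT box (CCAAT on either strand). The *Cpt1a* sequence lies on the plus strand at chr19:3323051-3323300, the *Acadl* sequence on the minus strand at chr1:66863310-66863559 and the *Cd36* sequence on the minus strand at chr5:17835897-17836146. The *Cd36* and *Cpt1a* windows precede RefSeq start sites that lie inside the gene spans given above, which run to the outermost annotated start.
Cpt1a: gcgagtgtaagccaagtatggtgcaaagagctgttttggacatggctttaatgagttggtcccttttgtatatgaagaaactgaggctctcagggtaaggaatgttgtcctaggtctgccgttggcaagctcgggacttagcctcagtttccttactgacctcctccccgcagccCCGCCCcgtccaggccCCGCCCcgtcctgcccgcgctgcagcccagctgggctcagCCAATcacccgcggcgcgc
Acadl: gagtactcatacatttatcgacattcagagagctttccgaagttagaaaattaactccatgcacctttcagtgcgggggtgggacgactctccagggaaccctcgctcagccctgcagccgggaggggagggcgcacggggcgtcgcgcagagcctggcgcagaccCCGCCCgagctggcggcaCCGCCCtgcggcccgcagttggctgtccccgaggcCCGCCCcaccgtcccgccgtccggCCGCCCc
Cd36: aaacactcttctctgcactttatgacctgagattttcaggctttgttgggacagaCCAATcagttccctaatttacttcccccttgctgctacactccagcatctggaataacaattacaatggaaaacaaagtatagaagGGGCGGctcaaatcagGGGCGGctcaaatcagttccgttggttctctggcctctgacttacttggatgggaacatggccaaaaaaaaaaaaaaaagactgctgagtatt
The window of *Cpt1a* held 2 GC boxes and 1 CCAAT box, that of *Acadl* 4 GC boxes and no CCAAT box, and that of *Cd36* 2 GC boxes and 1 CCAAT box. Of 32851 mouse promoter windows of the same length, 32.7% held a GC box and 33.9% a CCAAT box. The 2 motifs share no overlap in these windows. A direct repeat of the type bound by PPARG with its partner RXR, searched as 2 copies of AGGNCA with any 1 base between them on both strands, was found in none of the 6 windows of the 4 genes and in 0.338% of all windows. GC content was 59.6% for *Cpt1a*, 68.0% for *Acadl* and 43.2% for *Cd36*, against a median of 52.4%.

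Of 78 other genes of fatty acid metabolism, listed by role, 71 could be tested and 0 passed the adjusted threshold with edgeR. At an unadjusted p under 0.05, 13 of the 71 (18.3%) were lower and 4 (5.63%) were higher in allografts, where 3.86% and 6.41% of all tested genes were. The median log2 fold change of the 71 was -0.68, against -0.01 over all tested genes, with 20 higher and 51 lower. Without naive replicate 2, 72 genes could be tested, of which 11 had at most 3 counts in both naive replicates 1 and 3. Among all 18037 genes tested in that fit, 3307 did, and all 3307 were higher. These 11 passed the filter through the allografts alone and could only be higher. Of the other 61, 31 were higher and 30 lower, and at an unadjusted p under 0.05, 4 (6.56%) were higher and 8 (13.1%) lower. Over all genes with more than 3 counts in either of these naive libraries, the shares were 4.66% higher and 5.72% lower. None of the 61 passed the adjusted threshold with edgeR. With DESeq2 over all 7 libraries, which called 4.36% of all genes with a count, 9 of the 78 passed, 3 higher (*Srebf2*, *Fasn*, *Acly*) and 6 lower (*Rxra*, *Nr1h3*, *Slc27a1*, *Lpl*, *Hadh*, *Decr1*). In that test 17 genes received no adjusted p. Without naive replicate 2, *Srebf2*, *Rxra* (adjusted p = 2.4e-04), *Nr1h3*, *Hadh* and *Acly* still passed with DESeq2. *Rxra* stood at 25.5, 9.36 and 22.9 CPM in naive replicates 1 to 3 and at 5.46 to 10.3 CPM in the allografts. Its groups overlapped over all 7 libraries but not without naive replicate 2. *Fasn* (adjusted p = 0.0567), *Slc27a1* (0.0690) and *Decr1* (0.0633) then did not. *Lpl* stood at 0.0754, 228 and 29.96 CPM in naive replicates 1 to 3 and at 1.57 to 7.22 CPM in the allografts. Its edgeR log2 fold change went from -4.71 to -1.74 without naive replicate 2. DESeq2 size factors in the edgeR fit moved the median of all genes by -0.19.

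Among the regulators, *Srebf2*, which drives sterol and lipid synthesis, stood at 60.8, 34.03 and 43.5 CPM in the naive libraries (replicates 1 to 3) and 97.5 to 136 CPM in the allografts, without overlap (log2 fold change 1.15, SE 0.29, edgeR adjusted p = 0.185; DESeq2 adjusted p = 0.00290). *Nr1h3*, the liver X receptor alpha, had 8.26, 3.30 and 33.2 CPM in naive and 0 to 1.14 CPM in allograft libraries (log2 fold change -4.98, SE 1.62, edgeR adjusted p = 0.341; DESeq2 adjusted p = 0.00604). *Srebf2* lay higher and *Nr1h3* lower in every allograft, where 12.5% of all tested genes separated upward and 2.15% downward. Without naive replicate 2 the edgeR log2 fold changes were 1.10 for *Srebf2* and -5.42 for *Nr1h3*. DESeq2 then gave adjusted p of 0.00611 and 0.00270.

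Among the genes of fatty acid synthesis, 6 of 11 tested were higher and 5 lower, with a median log2 fold change of 0.29. Of all 17015 tested genes, 8408 were higher and 8607 lower. *Fasn*, the fatty acid synthase, stood at 19.1, 9.14 and 15.003 CPM in the naive libraries (replicates 1 to 3) and 25.009 to 39.7 CPM in allografts (log2 fold change 1.10, SE 0.39, edgeR adjusted p = 0.346). *Acly*, which makes cytosolic acetyl-CoA, had 57.8, 32.3 and 40.3 CPM in naive and 77.6 to 90.6 CPM in allograft libraries (0.80, SE 0.27, adjusted p = 0.341). Both separated the groups, and both passed with DESeq2 over all 7 libraries (adjusted p 0.0151 and 0.0332). Without naive replicate 2 the edgeR log2 fold changes were 0.97 for *Fasn* and 0.76 for *Acly*. DESeq2 then gave an adjusted p of 0.0567 for *Fasn*, which no longer passed, and of 0.0323 for *Acly*.

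Of the 14 tested genes of mitochondrial beta-oxidation other than *Acadl*, 12 were lower over all libraries, where 8607 of all 17015 tested genes were. Without naive replicate 2, 6 were lower and 8 (57.1%) higher. In that fit 49.4% of all genes with more than 3 counts in naive replicate 1 or 3 were higher. *Hadh*, the dehydrogenase of the step before the thiolase, stood at 114, 128 and 98.6 CPM in the naive libraries (replicates 1 to 3) and 53.2 to 74.3 CPM in allografts (log2 fold change -1.12, SE 0.33, edgeR adjusted p = 0.285). *Decr1*, needed for unsaturated fatty acids, had 140, 112 and 68.2 CPM in naive and 44.9 to 62.3 CPM in allograft libraries (-1.17, SE 0.36, adjusted p = 0.306). Both separated the groups and passed with DESeq2 over all 7 libraries (adjusted p 0.0318 and 0.0322). Without naive replicate 2 the edgeR log2 fold changes were -0.81 and -0.94. DESeq2 then gave an adjusted p of 0.0184 for *Hadh* and of 0.0633 for *Decr1*, which no longer passed. In mitochondrial import, *Crat* had a log2 fold change of -1.67 (adjusted p = 0.440) and *Cpt2* one of -2.41 (adjusted p = 0.737), and both overlapped between the groups.

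In uptake, the transporter *Slc27a1* stood at 10.4, 51.4 and 24.9 CPM in the naive libraries (replicates 1 to 3) and 1.70 to 7.63 CPM in allografts (log2 fold change -2.96, SE 0.85, edgeR adjusted p = 0.266; DESeq2 adjusted p = 0.0117). Without naive replicate 2 its edgeR fold was -1.93 (SE 0.77, adjusted p = 0.240), and the DESeq2 adjusted p was 0.0690. *Slc27a2* had 547 CPM in naive replicate 2 and at most 6.61 CPM elsewhere (edgeR adjusted p = 0.341). For the other roles, genes with the smallest p were *Acsl1* and *Acsl3* in activation (log2 fold changes -1.75 and -2.36), *Agpat2* and *Lpin2* in triglyceride synthesis (-1.24 and -1.57), and *Hsd17b4* in peroxisomes (-1.41). Their edgeR adjusted p ran from 0.404 to 0.743, and each of these 5 overlapped between the groups over all 7 libraries. Without naive replicate 2 their log2 fold changes were -0.24, -2.46, -0.90, -1.98 and -0.70, in the same order. DESeq2 then gave adjusted p of 0.877, 0.420, 0.196, 0.00349 and 0.272, so that *Lpin2* alone passed. All allografts lay below naive replicates 1 and 3 for *Lpin2*, as for 7.15% of all genes. Without naive replicate 3 its edgeR log2 fold change was -0.65. In lipolysis the genes with the smallest p were *Abhd5* (-1.42, adjusted p = 0.720) and *Lipe* (adjusted p = 0.495).

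Among the 11 genes with at most 3 counts in naive replicates 1 and 3, *Lipe*, *Scd1* and *G0s2* had 0 counts in both, and they were chosen for mention after their values were seen. *Lipe*, the hormone-sensitive lipase, had 6.34 to 14.4 CPM in the allografts, with a mean of 9.70 CPM. *Scd1* had 6.39 to 12.9 CPM there, with a mean of 8.998 CPM. *G0s2*, an inhibitor of lipolysis, had 1.93 to 9.34 CPM, with a mean of 5.95 CPM. No fold is given, because the filter fixed the direction of such genes. Naive replicates 1 and 3 also had fewer genes detected, 15820 and 13864, against 19235 to 21354 in the allografts. The part of this difference in the counts of 0 was not tested. Naive replicate 2 had 0.616 CPM of *Lipe*, 6.16 CPM of *Scd1* and 22.3 CPM of *G0s2*.

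**Figure D5:**
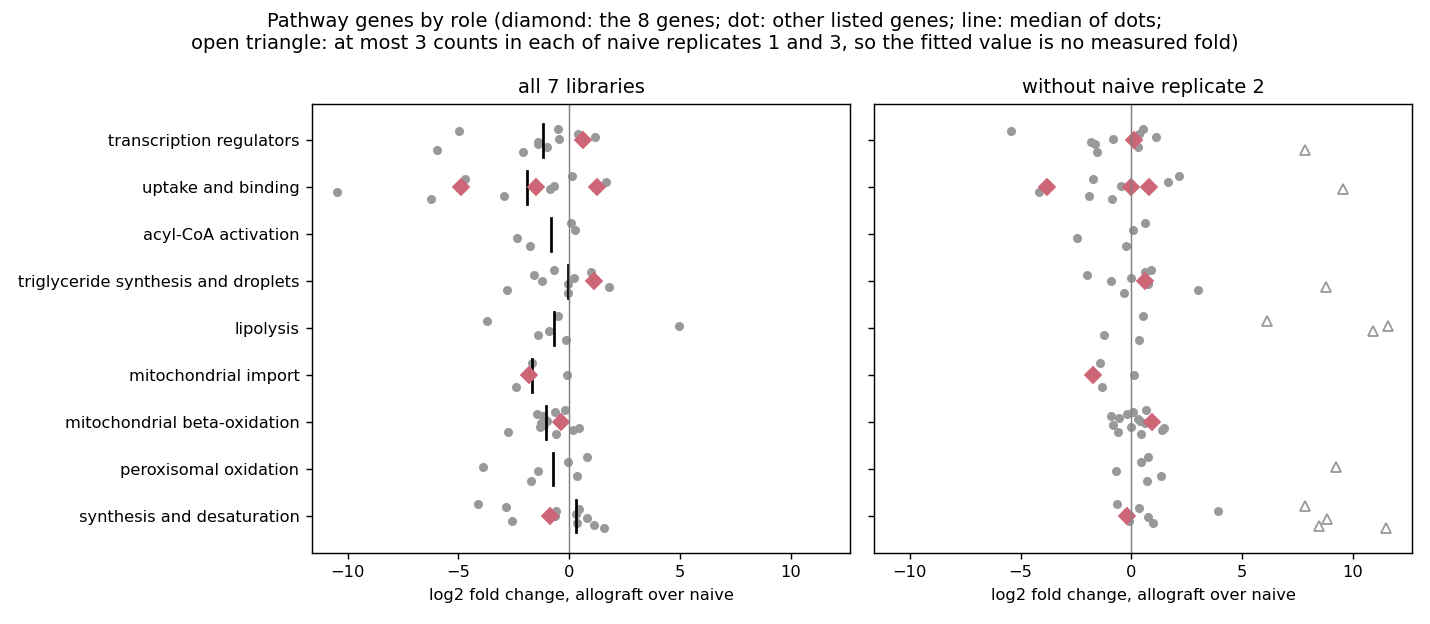
Log2 fold changes, allograft over naive, of the 8 genes (diamonds) and the other tested pathway genes (dots) by role, over all 7 libraries with the role's median (left) and without naive replicate 2 (right). Open triangles mark genes with at most 3 counts in each of naive replicates 1 and 3, whose fitted values are no measured folds; 51 of 71 dots are lower on the left, and 30 of the 61 filled dots on the right.

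The genes most like each of the 8 were found by the root mean square difference of centred log2 CPM over the 7 libraries, among 9601 other genes with a unique symbol and sufficient level. For *Cpt1a* they were *Iqcc* (0.20) and *Dyrk2* (0.23), for *Fabp4* *Sh3yl1* (0.84) and *Nr3c2* (0.99), and for *Pparg* *Tasp1* (0.17) and *Gm2a* (0.21). For *Fabp5* they were *Pip5k1b* (0.13) and *Celf2* (0.15), for *Dgat1* *Etv3* (0.19) and *Casp4* (0.19), and for *Acadl* *Anxa5* (0.18) and *Pea15a* (0.18). For *Cd36* they were *Mmaa* (0.23) and *Fbxo36* (0.32), and for *Scd2* *Cdc42bpa* (0.69) and *Dgcr8* (0.78). Over the 6 libraries without naive replicate 2 the nearest pairs were *Mllt1* (0.13) and *Llgl1* (0.17) for *Cpt1a*, *Lars2* (0.48) and *Thumpd2* (0.74) for *Fabp4*, *Ddost* (0.07) and *Ech1* (0.08) for *Pparg*, and *Mcrs1* (0.08) and *Leng1* (0.08) for *Fabp5*. They were *Arhgap45* (0.08) and *Furin* (0.11) for *Dgat1*, *Pea15a* (0.08) and *Dtd1* (0.09) for *Acadl*, *Pi4k2b* (0.10) and *Ccar2* (0.18) for *Cd36*, and *Lrrc47* (0.46) and *Mapk1ip1* (0.57) for *Scd2*. *Pea15a* for *Acadl* was the 1 gene shared between the 2 sets of libraries.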

How the data were processed

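The deposited tables gave counts and FPKM per gene for 7 libraries. Per the submitters' processing notes, FastQC 0.11.5, STAR 2.5.3a, StringTie 1.3.1c, DESeq2 1.16.1 and the build mm10 were used. Their roles, the annotation, the counting and the use of strand were not given in the sources used here. The authors' FPKM values carried the same measurement as the deposited counts: over 7340 genes with at least 100 counts in each library, the log ratio of FPKM to CPM had an SD of at most 0.00244 within a library. A total of 27197 identifiers had no count.

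Computed here were CPM of the deposited totals and a fit with edgeR 4.0.16 (R 4.3.3; quasi-likelihood, TMM, filterByExpr, Benjamini-Hochberg at 0.05) over all genes and libraries without covariates, tested on simulated data. SEs follow from the F statistic. A count of 0 allows 3 counts, 0.0566 to 0.103 CPM depending on the library; without molecular identifiers this covers counting error only. Alternatives were DESeq2 1.42.0, its size factors, no filter, a mean of at least 50 counts, a replicate block, leaving out each library and, added after seeing the data, DESeq2 without naive replicate 2. Gene coordinates are from GENCODE M21 (GRCm38). The named genes were the 8, the 2 other genes per role with the smallest p, and the 2 most alike (prior count 2) among genes averaging 3 or more in log2 CPM. One gene that this rule names is not reported here. The 8 genes and all lists were chosen with earlier results of these data known.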

Additional observations from a re-analysis of the deposited data

Results flagged for a closer look

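In the 4 allografts, the 8 genes, the named pathway genes and the marker sums were searched for values at which 1 allograft lay far from the rest. Of these 40 comparisons 2 met the criterion, and chance gives 2.0. *Slc27a2* was detected at 0.771 CPM in allograft replicate 2 alone, the rest having 0 counts. The macrophage and monocyte markers summed to 267 CPM in allograft replicate 1, against 173 to 188 CPM in the others. *Scd2*, lowest in that same allograft, did not meet the criterion.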

How the results depend on the processing

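Of the alternatives, DESeq2 alone changed the side of the threshold for any of the 8 genes. With it 2 of the 8, 9 of the other pathway genes and 1227 of all genes passed, and without naive replicate 2, an alternative added after seeing the data, 2, 18 and 3238. The 18 and the 3238 include genes with 0 counts in both naive replicates 1 and 3, such as *Lipe*, *Scd1* and *G0s2*. Such genes could only be higher, so the rise from 9 to 18 is no measure of change. With edgeR and 1 library left out at a time, 0 of the 8 passed in each fit, 0 to 3 of the other pathway genes and 0 to 560 of all genes (560 without naive replicate 2, 107 without naive replicate 1, 0 without any one allograft). The 3 had 0 counts in both remaining naive libraries, and 483 of the 560 had at most 3 counts in each. *Acadl* changed direction, with log2 fold changes from -0.88 to 0.92 over the libraries left out, 0.88 with DESeq2 without naive replicate 2 and 0.60 with a replicate block; the cause was not tested. Of the alternative folds of the 8 genes, 97 kept their direction and side, 4 gained a call and 3 reversed. The CPM means of the 8 genes in both groups moved by less than 1 SD when mitochondrial genes were left out of the totals and when TMM sizes were used. With the replicate block, which pairs libraries by number, 0 of all genes passed, with 252 at an unadjusted p under 0.05. Same-numbered libraries deviated together with correlations of 0.02, -0.02 and 0.04, and not every library was closest to its own number, so the numbers were not taken as pairs. The lowest count of any of the 8 genes in a library was 30, for *Fabp4* in allograft replicate 1.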
